A study of Mus musculus with 5 samples.

Results

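Complex I, or NADH:ubiquinone oxidoreductase, is the first and largest enzyme of the mitochondrial respiratory chain, and the transcripts of its nuclear genes are described here in the newborn mouse hippocampus. The members were all features whose symbol begins with Ndufa, Ndufb, Ndufc, Ndufs, Ndufv or Ndufab followed by a digit, without the Ndufaf assembly factors and without pseudogenes, which gave 38 of 32285 features. Of these, 36 encode subunits of the enzyme, 7 of them core subunits and 29 supernumerary ones. The other 2 stand apart, since the protein of Ndufa4 is now counted with cytochrome c oxidase and that of Ndufa4l2 is not an established subunit of the assembled enzyme.

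Gene expression was measured by droplet single-cell RNA sequencing of the 3′ ends of transcripts, in 2 libraries of Trem2 knockout (KO) and 3 libraries of wild-type (WT) hippocampus. All pups were at postnatal day 1, every library pooled 2 pups, and the tissue was dissociated with papain. The KO libraries are numbered 2 and 3 and the WT libraries 1, 2 and 3. Both libraries numbered 2 were made from males and the others from 1 female and 1 male by their descriptions, whereas a further label gives both sexes for each. The title of the study names microglial Trem2 and the bioenergetics of developing neurons as its question. The allele is labelled as a homozygous loss of Trem2, a lipid-sensing receptor of microglia, and the labels do not say which exons are deleted.

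Complex I takes electrons from NADH, passes them along a chain of iron-sulfur clusters to ubiquinone, and pumps protons across the inner mitochondrial membrane. The NADH-binding N module and the ubiquinone-reducing Q module form the arm in the matrix, and a proximal and a distal part form the membrane arm, whose proton-pumping core is encoded by mitochondrial DNA. The core subunits carry the cofactors and the catalysis, and the supernumerary subunits surround them and are needed for assembly and stability. The 36 subunits comprised 8 of the N module, 8 of the Q module, 9 of the proximal and 10 of the distal membrane arm, and Ndufab1, the mitochondrial acyl carrier protein, which sits in both the Q module and the distal arm.

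The 5 libraries held 66984325 and 69010249 unique molecular identifiers (UMIs, each 1 captured transcript) in the KO and 70357862, 60024793 and 91205882 in the WT, in 40345 barcodes, of which 30699 passed the filters on cells. Cells were assigned to a class only where they carried a minimum number of its marker genes, which placed 16422 cells, between 52.33% and 55.55% of each library, and such a class is written with "-like". The libraries shared 12 to 26 cell barcodes per pair. Trem2 in microglia-like cells was at 56.4 and 92.2 CPM (UMIs scaled to a common class total of 1e6) in the KO, against 1535, 1580 and 846 CPM in the WT libraries. In pyramidal-like neurons it had 0 UMIs in both KO libraries, and 0, 2 and 0 UMIs in the WT libraries. In the 11 classes set mainly by 1 list, the median cell carried 5 to 9 markers of that list, from 5 of 8 in intermediate progenitor-like to 9 of 11 in microglia-like cells. Astrocyte-like cells carried 4 of 8 astrocyte and 9 of 10 radial glia markers in the median, maturing granule-like neurons 2 of 8 and CA1-like neurons 2 of 6 of their own lists. The gate with most cells near its minimum was that of intermediate progenitors, with 2307 cells 1 marker below it, 1209 at it and 1670 above it. Reads of a member cannot be separated from those of a gene that overlaps it, and no source used here says whether counting used strand. That applies to 6 members with a neighbour on their own strand (Ndufa10, Ndufa13, Ndufb2, Ndufb8, Ndufb9 and Ndufc2) and to 16 members with a gene on the opposite strand, among them Ndufa3, Ndufb5, Ndufb6 and Ndufa4l2.

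The 38 genes lie on 15 chromosomes, and promoters from RefSeq (GRCm38.p6, from 250 bases before to 50 bases after the annotated start) were found for 33 of them, 35 windows in all. A motif of the NRF1 type (GCGC, then any base, then TGCGC, on either strand), the palindromic site of a factor known for driving nuclear genes of respiration, occurred in 8 of 35 windows (22.86%), against 4.603% of all 32851 windows of that length. A motif of the YY1 type (AAGATGGC) occurred in 7 of 35 windows (20%), against 2.749% of all windows, and every one of these reached past the start into the transcribed bases. A motif of the GABP type (CCGGAAG) occurred in 4 of 35 windows (11.43%), against 8.858% of all windows. The 3 motifs were searched on both strands, the GABP type ends in the letters with which the YY1 type begins, and at least 1 of them was found for 17 members. A match is a run of letters and not a measured binding site. The upstream parts of 4 windows are printed with the motif in capitals. Ndufs5 (chr4:123718203-123718436, minus strand) and Ndufb4 (chr16:37654454-37654618, minus strand) show the NRF1 type. Ndufb6 (chr4:40279422-40279671, minus strand) shows the GABP type. Ndufc2 (chr7:97399753-97400002, plus strand), the subunit that varied most between classes, holds no match to any of the 3 in this stretch and so has no capitals.
Ndufs5: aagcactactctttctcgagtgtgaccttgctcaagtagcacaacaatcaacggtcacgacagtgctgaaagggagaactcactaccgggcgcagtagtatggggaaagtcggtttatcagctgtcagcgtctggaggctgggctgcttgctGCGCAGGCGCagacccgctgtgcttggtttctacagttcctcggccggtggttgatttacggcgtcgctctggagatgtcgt
Ndufb4: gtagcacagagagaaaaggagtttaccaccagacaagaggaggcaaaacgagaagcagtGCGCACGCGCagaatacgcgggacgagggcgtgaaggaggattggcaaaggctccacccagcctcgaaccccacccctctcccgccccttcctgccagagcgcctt
Ndufb6: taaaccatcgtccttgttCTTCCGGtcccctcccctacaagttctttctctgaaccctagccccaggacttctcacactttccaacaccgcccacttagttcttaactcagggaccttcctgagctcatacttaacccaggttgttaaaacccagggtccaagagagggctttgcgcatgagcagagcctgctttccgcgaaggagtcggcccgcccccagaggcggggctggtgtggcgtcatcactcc
Ndufc2: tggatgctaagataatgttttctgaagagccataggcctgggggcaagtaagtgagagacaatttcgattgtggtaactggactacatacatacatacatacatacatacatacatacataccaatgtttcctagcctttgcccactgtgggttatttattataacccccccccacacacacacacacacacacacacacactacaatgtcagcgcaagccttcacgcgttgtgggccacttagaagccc

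The summed level of the 36 subunits differed 1.94 times between the highest and the lowest of 17 classes. It was highest in interneuron-like cells at 11176 ± 344 CPM and in Cajal-Retzius-like neurons at 10494 ± 382 CPM (SD over libraries, n = 5 here and below). Radial glia-like cells followed at 9987 ± 357 CPM, dividing radial glia-like cells at 9505 ± 137 CPM, and oligodendrocyte precursor-like, ependymal-like and astrocyte-like cells at 9464 ± 220, 9392 ± 235 and 9364 ± 317 CPM. These last 4 classes did not differ beyond their spread, and neither did, among themselves, mural-like cells at 9065 ± 426 CPM, fibroblast-like cells at 8998 ± 673 CPM and CA3-like and CA1-like neurons at 8929 ± 226 and 8798 ± 351 CPM. The later stages of the dentate lineage were lower, at 8261 ± 378 CPM in maturing granule-like neurons, 8258 ± 401 CPM in intermediate progenitor-like cells and 7719 ± 310 CPM in immature granule-like neurons. Microglia-like cells held 7056 ± 661 CPM, endothelial-like cells 6495 ± 381 CPM and border macrophage-like cells, the lowest class, 5764 ± 692 CPM. Ndufc2 alone gave 1258 CPM of the sum in radial glia-like and 1158 CPM in dividing radial glia-like cells. Against pyramidal-like neurons (CA1-like and CA3-like together), its log2 ratio of CPM was 1.33 to 1.54 by library in radial glia-like cells. The median of the 36 subunits was -0.06 to 0.11 there. In astrocyte-like cells these ranges were 0.76 to 1.07 and -0.05 to 0.10. A level in CPM is a share of the RNA of the class and does not give the number of transcripts per cell. The classes also differed in depth, from a median of 5084.5 UMIs per cell in mural-like cells to 18362.5 in CA3-like neurons.

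**Figure D1:**
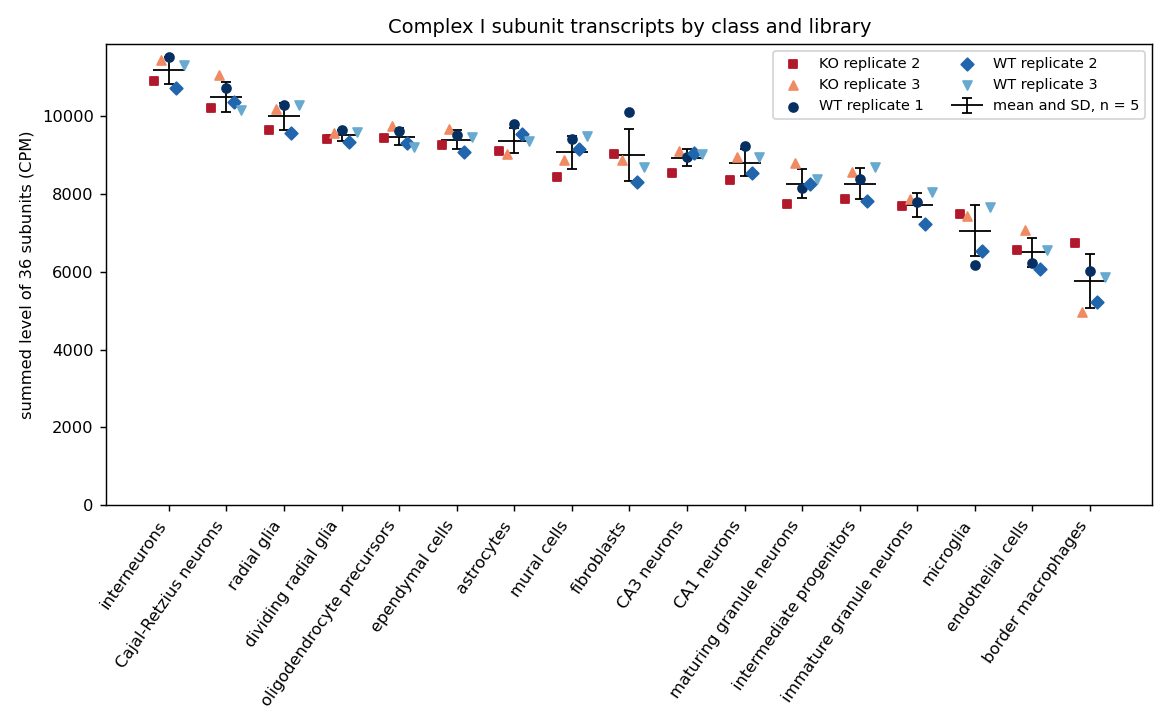
Summed level of the 36 complex I subunit transcripts (CPM, linear axis from 0) in 17 marker-gated classes, ordered by mean; each point is 1 library, KO libraries in reds and WT libraries in blues, and the bars give the mean and SD of 5 libraries. Interneuron-like cells average 11176 CPM and border macrophage-like cells 5764 CPM, and the KO and WT points overlap in every class but astrocyte-like and mural-like cells, where the KO points are lower.

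The subunits did not all follow the sum. Interneuron-like cells held the highest level of 11 of the 36 subunits, Cajal-Retzius-like neurons of 9 and ependymal-like cells of 5, whereas border macrophage-like cells held the lowest level of 20 and endothelial-like cells of 7. The ratio of the highest to the lowest class mean had a median of 2.24 and ran from 1.46 for Ndufa6, a Q module subunit, to 5.91 for Ndufc2, a subunit of the proximal membrane arm. Only Ndufc2 and Ndufb2, a subunit of the distal arm at 4.48, exceeded 4. Across the 17 class means, Pearson's correlation of a subunit with the median of the other subunits ran from 0.19 for Ndufa2 to 0.95 for Ndufb9, with a median of 0.72. These are descriptions over classes that share 5 libraries and differ in depth. The subunits least like the others were Ndufa2 at 0.19, Ndufa9 at 0.25, Ndufs8 at 0.29 and Ndufa6 at 0.32.

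**Figure D2:**
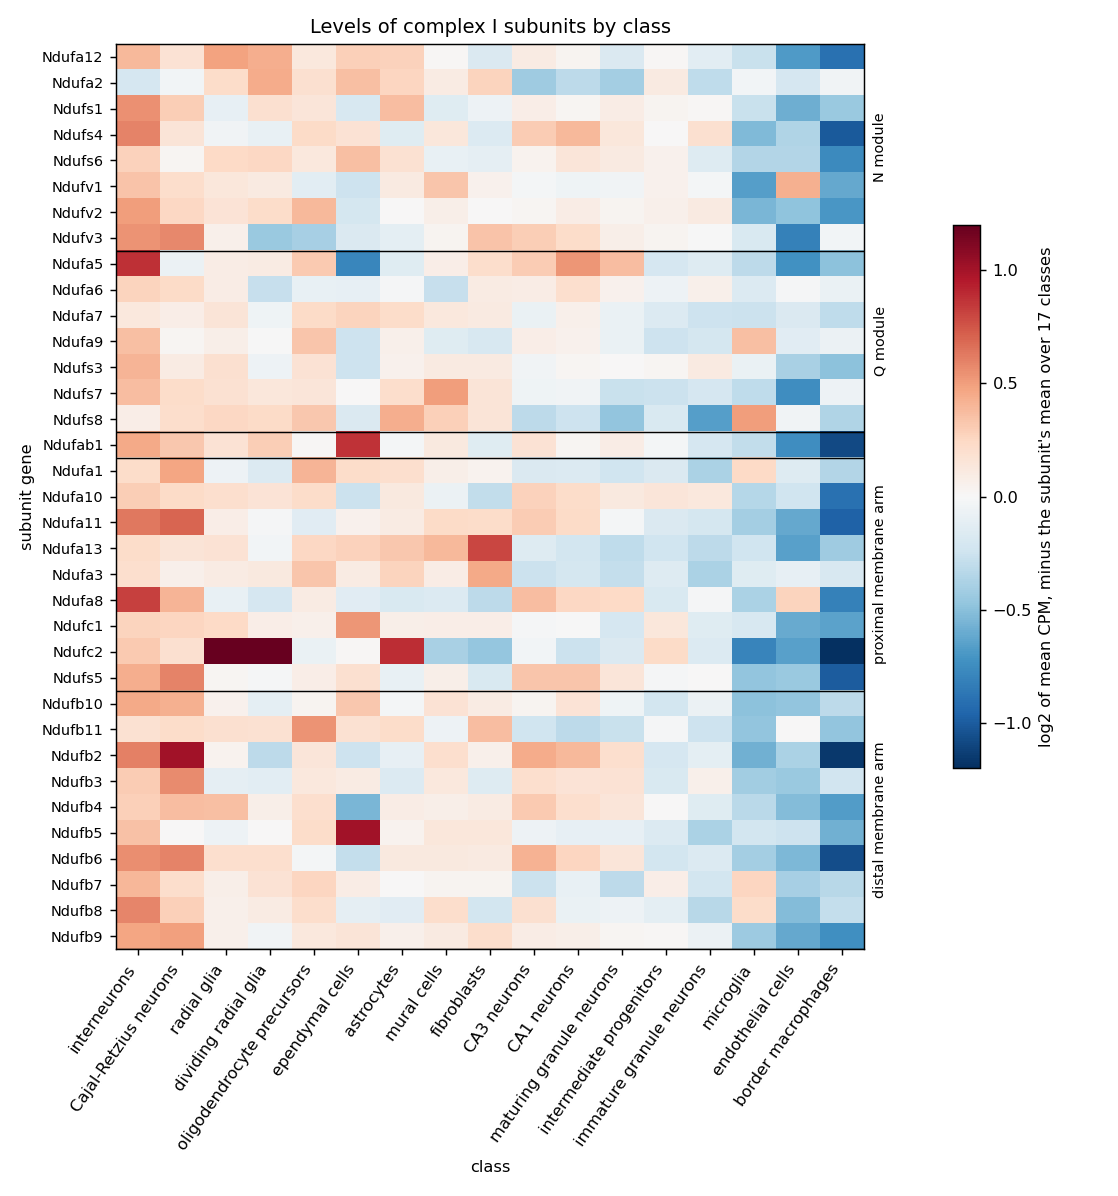
Level of 35 of the 36 subunits (rows, grouped by module) in 17 classes (columns, ordered by the summed level), as the log2 of the mean CPM of 5 libraries minus that subunit's mean over the classes; colours stop at 1.2 above and below. Ndufc2 stands out in both radial glia-like classes and astrocyte-like cells, and Ndufb5 and Ndufab1 in ependymal-like cells, while most rows are lowest in the border macrophage-like column.

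Along the dentate lineage, the step out of dividing radial glia brought a mixed change, with more subunits lower than higher. In intermediate progenitor-like cells, the Eomes-expressing precursors of granule neurons, 5 of 37 members tested were higher and 17 lower than in dividing radial glia-like cells. Of all genes 69.8% passed in that comparison (34.9% higher and 35.0% lower), so that the members' share of changes was not above it, and their median log2 difference was -0.07, against 0.01 over all genes tested. The N module had 1 member higher and 4 lower of 8, the Q module 1 and 4 of 8, the proximal arm 0 and 4 of 9 and the distal arm 2 and 4 of 10. Fitted differences are scaled between classes (TMM), so that they can depart from the ratio of 2 CPM values. Of the 7 core subunits 0 were higher and 3 lower, namely Ndufv2, an iron-sulfur subunit of the N module, at -0.13, Ndufs7, an iron-sulfur subunit beside the quinone site, at -0.37, and Ndufs8, another iron-sulfur subunit of the Q module, at -0.39.

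Ndufc2 fell most. It stood at 603 and 591 CPM in the KO and 546, 571 and 591 CPM in the WT libraries of intermediate progenitor-like cells, against 1228 and 1238 CPM (KO) and 980, 1169 and 1178 CPM (WT) in dividing radial glia-like cells. No library of one class reached the other, and the log2 difference was -0.96 (SE 0.037, adjusted p = 1.73e-15 by edgeR). The level was 650 ± 78.5 CPM in the dividing and 556 ± 37.4 CPM in the non-dividing intermediate progenitor-like cells, both below each dividing radial glia-like library. Ndufb6, of the distal membrane arm, also fell. It was at 122 and 137 CPM (KO) and 138, 118 and 171 CPM (WT) in intermediate progenitor-like cells, against 202 and 174 CPM (KO) and 180, 169 and 194 CPM (WT) in dividing radial glia-like cells. The ranges touched between WT replicate 3 of the later class and WT replicate 2 of the earlier one, and each library had the same direction (log2 difference -0.40, SE 0.065, adjusted p = 1.50e-05 by edgeR).

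An N module and a Q module member went the other way. Ndufv3, an N module subunit that exists as long and short isoforms, was at 161 and 196 CPM (KO) and 206, 159 and 219 CPM (WT) in intermediate progenitor-like cells, against 124 and 125 CPM (KO) and 154, 114 and 158 CPM (WT) in dividing radial glia-like cells. The 2 classes did not overlap, by a narrow margin, and each library had the same direction (log2 difference 0.51, SE 0.055, adjusted p = 5.34e-08 by edgeR). Ndufa6, a Q module subunit that binds the acyl carrier protein, rose by less, with a log2 difference of 0.25 (SE 0.052, adjusted p = 0.000192 by edgeR) and higher levels in 5 of 5 libraries. Dividing intermediate progenitor-like cells had Ndufv3 at 156 ± 21.3 CPM and the non-dividing ones at 200 ± 31.6 CPM, and the part of division in the difference was not tested.

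The next step, to immature granule neurons, lowered further members by small amounts. In immature granule-like neurons 6 of 37 members were higher and 15 lower than in intermediate progenitor-like cells, while 52.5% of all genes passed (25.8% higher and 26.7% lower), and the median was -0.07, against 0.00 over all genes tested. Ndufs8 was at 75.6 and 55.05 CPM (KO) and 74.1, 63.4 and 72.8 CPM (WT) in immature granule-like neurons, against 93.3 and 99.2 CPM (KO) and 104, 81.0 and 96.6 CPM (WT) in intermediate progenitor-like cells. The classes did not overlap (log2 difference -0.46, SE 0.071, adjusted p = 1.38e-06 by edgeR). Ndufa2, a thioredoxin-like subunit of the N module, was at 225 and 229 CPM (KO) and 242, 236 and 236 CPM (WT), against 273 and 314 CPM (KO) and 363, 305 and 304 CPM (WT), again without overlap (-0.40, SE 0.045, adjusted p = 2.21e-09 by edgeR). Ndufc2 fell again, by 0.39 on the log2 scale. Ndufa4, the cytochrome c oxidase subunit, rose in the same step, to 1249 and 1177 CPM (KO) and 1108, 1163 and 1260 CPM (WT) in immature granule-like neurons, against 969 and 1005 CPM (KO) and 922, 958 and 1019 CPM (WT) in intermediate progenitor-like cells (0.30, SE 0.029, adjusted p = 1.01e-10 by edgeR). Ndufb3, a distal arm subunit, rose by 0.25 (SE 0.052, adjusted p = 0.000107 by edgeR) with 5 of 5 libraries higher.

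In maturing granule-like neurons, 10 of 37 members were higher and 0 lower than in immature granule-like neurons, while 39.2% of all genes passed (21.1% higher and 18.1% lower). The median was 0.06, against -0.01 over all genes tested. The distal membrane arm held 5 of the 10, namely Ndufb2, Ndufb4, Ndufb5, Ndufb6 and Ndufb8, and none of the 7 core subunits passed. Ndufa5, a Q module subunit, was at 222 and 247 CPM (KO) and 265, 303 and 270 CPM (WT) in maturing granule-like neurons, against 167 and 191 CPM (KO) and 180, 177 and 193 CPM (WT) in immature granule-like neurons. Every maturing library lay above every immature one (log2 difference 0.47, SE 0.065, adjusted p = 3.62e-07 by edgeR). Ndufb2 was at 200 and 253 CPM (KO) and 265, 211 and 240 CPM (WT), against 176 and 194 CPM (KO) and 191, 165 and 210 CPM (WT), which overlap by a single library each (0.28, SE 0.064, adjusted p = 0.000655 by edgeR). Maturing granule-like neurons had a median of 12339 UMIs per cell and immature ones 7448.5. With every cell thinned to 3000 UMIs 1 member passed, with cells of 6000 to 15000 UMIs 6 did and with at most 5% mitochondrial UMIs 4 did, and the call of Ndufb2 was lost in all 3.

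**Figure D3:**
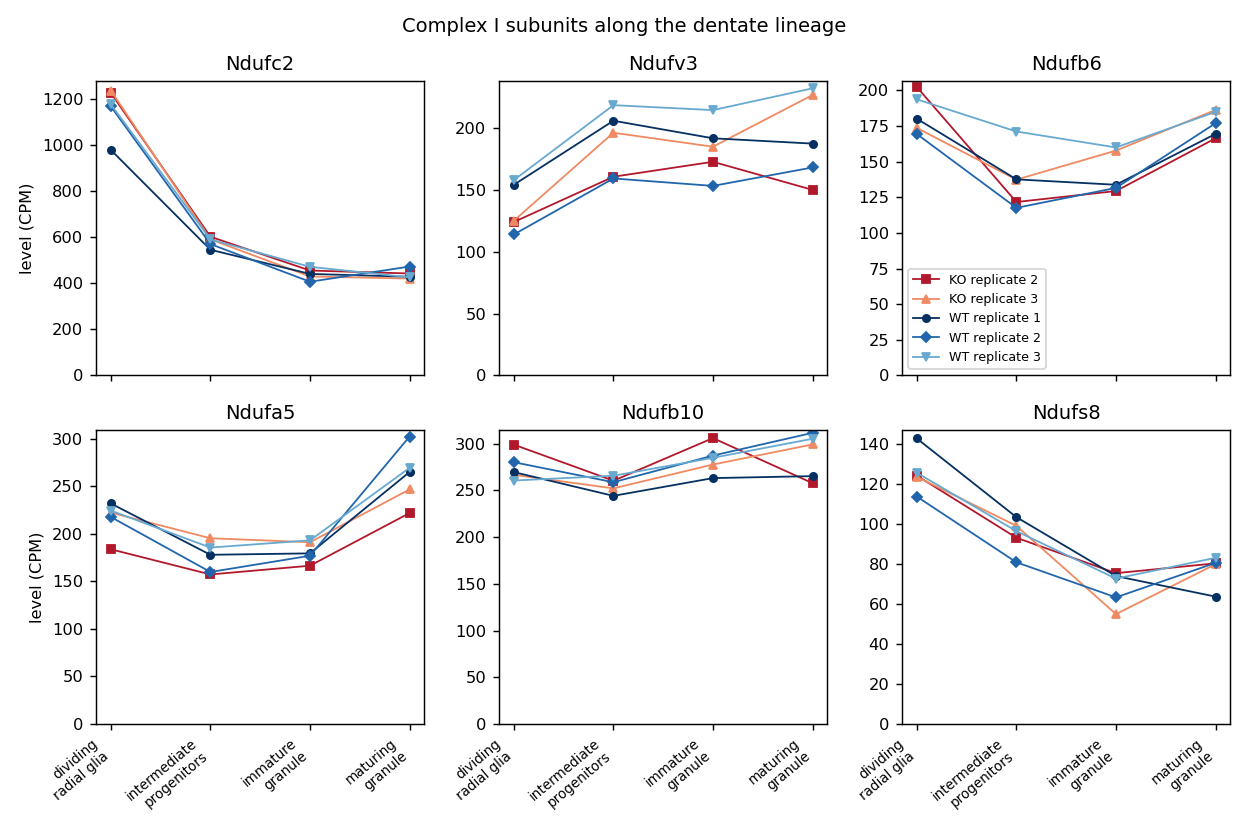
Level (CPM, linear axis from 0) of 6 subunits at 4 stages of the dentate lineage, from dividing radial glia-like cells to maturing granule-like neurons; each line is 1 library, KO in reds and WT in blues, with a scale of its own in each panel. Ndufc2 drops to 580 CPM on average in intermediate progenitor-like cells and to 441 CPM in immature granule-like neurons, Ndufv3 steps up at the first transition, and Ndufa5 rises at the last.

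The other genes of the pathway were read at the same steps, with no test of their difference from the subunits. Of the 7 mitochondrially encoded subunits, 4 were higher and 1 lower in intermediate progenitor-like than in dividing radial glia-like cells, 4 and 1 in immature granule-like neurons than in intermediate progenitor-like cells, and 3 and 0 in maturing than in immature granule-like neurons. mt-Nd1, a membrane arm core subunit, was the member that fell at both of the first 2 steps (-0.17 and -0.08) and it rose at the third (0.28). Of 15 assembly factors, 2 were higher and 5 lower at the first step and 2 and 6 at the second, and of the 14 tested at the third 2 were higher and 1 lower. Nubpl, which delivers iron-sulfur clusters to complex I, was at 5.65 ± 0.666 CPM in intermediate progenitor-like cells, against 12.5 ± 2.95 CPM in dividing radial glia-like cells (-1.07, adjusted p = 1.60e-05 by edgeR). Among 7 regulators of mitochondrial genes, Ppargc1a, the coactivator of mitochondrial biogenesis, fell to 4.24 ± 0.947 CPM in intermediate progenitor-like cells, against 51.8 ± 7.48 CPM in dividing radial glia-like cells (-3.61, adjusted p = 3.28e-15 by edgeR). It was higher again in maturing than in immature granule-like neurons, at 12.3 ± 4.42 and 5.91 ± 1.13 CPM (1.06, adjusted p = 0.000951 by edgeR).

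Most nuclear complex I members, in each module, took a larger share of the RNA in interneuron-like cells than in pyramidal-like neurons. Of 37 members, 32 were higher and 0 lower, while 54.3% of all genes passed in that comparison (27.0% higher and 27.3% lower), and the median was 0.32, against 0.01 over all genes tested. The members higher were 8 of 8 in the N module, 7 of 8 in the Q module, 7 of 9 in the proximal and 8 of 10 in the distal arm, Ndufab1 and Ndufa4. The 5 that did not pass were Ndufa6 at 0.09, Ndufs5 at 0.05, Ndufb3 at 0.04, Ndufa10 at -0.01 and Ndufb4 at -0.04. The pyramidal-like reference, here and below, summed CA1-like and CA3-like neurons, and CA3-like neurons gave 40082011 of its 51245464 UMIs.

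All 7 core subunits passed, each higher in 5 of 5 libraries. Ndufs1, which carries iron-sulfur clusters of the N module, was at 74.2 ± 7.47 CPM in interneuron-like cells, against 53.7 ± 3.06 CPM in pyramidal-like neurons (log2 difference 0.39), and Ndufv1, which binds NADH and the flavin, was at 136 ± 9.99 against 105 ± 8.41 CPM (0.32). Ndufv2 was at 314 ± 16.3 against 228 ± 9.59 CPM (0.42). Ndufs7, beside the quinone site, differed by 0.37, Ndufs3 by 0.39 and Ndufs8 by 0.35. The 2 largest differences were in Ndufb7, a distal arm subunit in the intermembrane space, and Ndufa5. Ndufb7 was at 341 and 379 CPM (KO) and 364, 320 and 362 CPM (WT) in interneuron-like cells, against 207 and 244 CPM (KO) and 252, 227 and 228 CPM (WT) in pyramidal-like neurons (0.57, SE 0.039, adjusted p = 2.19e-10 by edgeR). Ndufa5 was at 338 and 393 CPM (KO) and 420, 322 and 377 CPM (WT), against 228 and 248 CPM (KO) and 271, 269 and 279 CPM (WT) in pyramidal-like neurons (0.48, SE 0.048, adjusted p = 6.04e-08 by edgeR). Neither gene overlapped between the classes. Median depth was 8992 UMIs per interneuron-like cell and 15451 per pyramidal-like neuron. With all cells thinned to 3000 UMIs or limited to 6000 to 15000 UMIs the count stayed within 1.5 times of 32. With 37 members tested, only a lower count could break that bound, and the counts themselves are not given here.

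The mitochondrially encoded subunits did not share that difference, with 1 of 7 higher and 2 lower in interneuron-like cells, and assembly factors had 0 of 15 higher and 2 lower. mt-Nd1 was at 4187 ± 583 CPM in interneuron-like cells, against 4334 ± 550 CPM in pyramidal-like neurons (-0.10, adjusted p = 0.00244 by edgeR). Ndufaf2, an assembly factor related to a structural subunit, was at 91.5 ± 6.27 against 110 ± 6.33 CPM (-0.33, adjusted p = 3.56e-05 by edgeR). Of 8 regulators 4 were higher and 0 lower. Ppargc1a was at 76.6 and 89.3 CPM (KO) and 103, 110 and 70.1 CPM (WT) in interneuron-like cells, against 13.7 and 14.6 CPM (KO) and 16.5, 12.7 and 16.6 CPM (WT) in pyramidal-like neurons, far apart in each library (2.46, adjusted p = 3.23e-14 by edgeR). Its relative Ppargc1b differed by 0.95 and Esrra, the nuclear receptor that partners Ppargc1a, by 0.73.

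Cajal-Retzius-like neurons, the reelin-secreting neurons of the marginal zone, had 25 members higher and 2 lower of 37 than pyramidal-like neurons, while 68.0% of all genes passed (34.1% higher and 33.8% lower), with a median of 0.19, against 0.01 over all genes tested. Of the core subunits 6 were higher and 0 lower, and Ndufs3 did not pass at 0.08. Ndufa1, a small X-linked subunit of the proximal arm, was at 154 and 174 CPM (KO) and 186, 161 and 156 CPM (WT) in Cajal-Retzius-like neurons, against 88.0 and 106 CPM (KO) and 122, 106 and 110 CPM (WT) in pyramidal-like neurons (0.60, SE 0.049, adjusted p = 5.72e-09 by edgeR). Ndufb2 was at 375 and 418 CPM (KO) and 436, 423 and 396 CPM (WT), against 230 and 282 CPM (KO) and 306, 270 and 287 CPM (WT) (0.54, SE 0.040, adjusted p = 1.50e-09 by edgeR). Both were higher in 5 of 5 libraries without overlap.

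Ndufa5, which was higher in interneuron-like cells, was lower in Cajal-Retzius-like neurons, at 180 and 208 CPM (KO) and 201, 188 and 182 CPM (WT), against 228 and 248 CPM (KO) and 271, 269 and 279 CPM (WT) in pyramidal-like neurons (-0.47, SE 0.049, adjusted p = 1.39e-07 by edgeR). Ndufs4, an N module subunit whose loss causes Leigh-like disease in mice, was the other lower member (-0.21, SE 0.039, adjusted p = 0.000101 by edgeR), in 5 of 5 libraries. The mitochondrially encoded subunits went against the nuclear ones, with 0 of 7 higher and 6 lower, such as mt-Nd2, a proton-pumping subunit, at 2382 ± 418 CPM in Cajal-Retzius-like neurons, against 2808 ± 416 CPM in pyramidal-like neurons (-0.28, adjusted p = 5.28e-08 by edgeR). Ppargc1a was at 82.2 ± 4.55 CPM in Cajal-Retzius-like neurons (2.43 above pyramidal-like neurons, adjusted p = 1.09e-14 by edgeR).

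Within pyramidal-like neurons, CA1-like neurons had 4 of 37 members higher and 8 lower than CA3-like neurons, while 43.4% of all genes passed (21.2% higher and 22.2% lower), with a median of -0.04, against 0.02 over all genes tested. Ndufa4 set them apart most. It was at 851 and 854 CPM (KO) and 822, 889 and 845 CPM (WT) in CA1-like neurons, against 1214 and 1207 CPM (KO) and 1198, 1308 and 1256 CPM (WT) in CA3-like neurons (-0.56, SE 0.031, adjusted p = 1.12e-13 by edgeR). Ndufb8, of the distal arm, was at 352 and 351 CPM (KO) and 348, 348 and 377 CPM (WT) in CA1-like neurons, against 438 and 426 CPM (KO) and 395, 454 and 429 CPM (WT) in CA3-like neurons (-0.29, SE 0.040, adjusted p = 2.02e-06 by edgeR). The classes did not overlap in either gene. Ndufa5 was higher by 0.19 (SE 0.047, adjusted p = 0.00214 by edgeR) and Ndufb7 by 0.15 (SE 0.045, adjusted p = 0.00760 by edgeR), and neither of these calls held with cells thinned to 3000 UMIs. The call of Ndufa5 was also lost with at most 5% mitochondrial UMIs, and that of Ndufb7 with DESeq2, no filter, 1 more marker per gate, cells of 6000 to 15000 UMIs or without WT replicate 1 (0.11). The count of 12 was 7 without WT replicate 3, and 4 to 7 with thinned cells, cells of 6000 to 15000 UMIs, at most 5% mitochondrial UMIs or DESeq2, beside a median depth of 10136 UMIs in CA1-like and 18362.5 in CA3-like neurons.

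Radial glia-like cells, which carried 0 of 8 dividing markers in the median, stood apart from pyramidal-like neurons most through Ndufc2. They had 7 of 37 members higher and 10 lower, while 55.5% of all genes passed (27.0% higher and 28.4% lower), with a median of -0.07, against -0.01 over all genes tested. With library totals in place of TMM scaling 13 were higher and 8 lower. Ndufc2 was at 1219 and 1178 CPM (KO) and 1270, 1323 and 1302 CPM (WT) in radial glia-like cells, against 484 and 455 CPM (KO) and 441, 524 and 447 CPM (WT) in pyramidal-like neurons with a wide gap between the classes (log2 difference 1.32, SE 0.074, adjusted p = 7.16e-12 by edgeR). Ndufa2 was also higher, by 0.52 (SE 0.081, adjusted p = 1.58e-05 by edgeR) in 5 of 5 libraries. Ndufa8, a proximal arm subunit in the intermembrane space, was at 240 and 227 CPM (KO) and 216, 243 and 217 CPM (WT), against 331 and 303 CPM (KO) and 297, 319 and 296 CPM (WT) (-0.54, SE 0.082, adjusted p = 1.24e-05 by edgeR). Ndufb2 was lower by 0.49 on the log2 scale in 5 of 5 libraries (adjusted p = 6.45e-05 by edgeR), and with cells of 6000 to 15000 UMIs that call was lost at -0.25. The count was 11 with at most 5% mitochondrial UMIs.

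Astrocyte-like cells had more Ndufc2 than pyramidal-like neurons, though less than any radial glia-like library, and higher levels of most core subunits. They had 16 of 37 members higher and 14 lower than pyramidal-like neurons, while 80.8% of all genes passed (40.6% higher and 40.2% lower), and a median of 0.01 for the members and over all genes tested. Ndufc2 was at 1015 and 870 CPM (KO) and 863, 891 and 924 CPM (WT) in astrocyte-like cells (log2 difference 0.98 to pyramidal-like neurons, SE 0.057, adjusted p = 2.53e-10 by edgeR). Of the core subunits 5 were higher and 0 lower, and Ndufs3 at 0.10 and Ndufv2 at -0.02 did not pass. Ndufs8 was at 143 and 133 CPM (KO) and 154, 149 and 148 CPM (WT) in astrocyte-like cells, against 85.0 and 81.2 CPM (KO) and 94.1, 83.1 and 95.6 CPM (WT) in pyramidal-like neurons (0.75, SE 0.056, adjusted p = 5.05e-09 by edgeR). The classes did not overlap in either gene. In the distal arm 3 were higher and 5 lower, with Ndufb2 at -0.51 (SE 0.053, adjusted p = 2.68e-07 by edgeR), and Ndufa8 was at -0.50 (SE 0.053, adjusted p = 3.51e-07 by edgeR). Assembly factors were split too, 5 higher and 8 lower of 15, from Ndufaf5, which modifies Ndufs7, at -1.38 to Acad9, an acyl-CoA dehydrogenase that also assembles complex I, at 0.95.

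In oligodendrocyte precursor-like cells 11 of 37 members were higher and 11 lower than in pyramidal-like neurons, while 67.7% of all genes passed (33.8% higher and 33.9% lower). The median was -0.03, against 0.00 over all genes tested, and with library totals alone the split was 14 and 7. Ndufb11, an X-linked distal arm subunit, was at 551 and 447 CPM (KO) and 468, 504 and 475 CPM (WT) in oligodendrocyte precursor-like cells, against 264 and 279 CPM (KO) and 277, 284 and 303 CPM (WT) in pyramidal-like neurons (log2 difference 0.72, SE 0.070, adjusted p = 6.64e-08 by edgeR). Ndufv3 was at 99.5 and 153 CPM (KO) and 145, 117 and 180 CPM (WT), against 183 and 229 CPM (KO) and 252, 194 and 258 CPM (WT) (-0.77, SE 0.070, adjusted p = 2.61e-08 by edgeR). The classes did not overlap in either gene. Ndufs8 was higher by 0.53 (SE 0.074, adjusted p = 4.81e-06 by edgeR) and Ndufa11, a proximal arm subunit, lower at -0.50 (SE 0.061, adjusted p = 9.22e-07 by edgeR), each in 5 of 5 libraries.

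Ependymal-like cells, the ciliated lining of the ventricle, had 8 of 38 members higher and 20 lower than pyramidal-like neurons, while 78.5% of all genes passed (38.2% higher and 40.3% lower). The median was -0.24, against -0.06 over all genes tested. That balance depended on scaling, since with library totals alone 14 were higher and 16 lower and the median was -0.05, against 0.12 over all genes tested. Ndufb5, a distal arm subunit, was at 731 and 713 CPM (KO) and 674, 620 and 643 CPM (WT) in ependymal-like cells, against 334 and 323 CPM (KO) and 306, 344 and 299 CPM (WT) in pyramidal-like neurons (log2 difference 0.89, SE 0.073, adjusted p = 2.03e-09 by edgeR). Ndufab1 was at 565 and 469 CPM (KO) and 456, 495 and 540 CPM (WT), against 300 and 295 CPM (KO) and 297, 336 and 303 CPM (WT) (0.54, SE 0.075, adjusted p = 2.76e-06 by edgeR). Both were higher in each library, without overlap.

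On the lower side, Ndufa5 was at 95.3 and 116 CPM (KO) and 118, 130 and 126 CPM (WT) in ependymal-like cells, against 228 and 248 CPM (KO) and 271, 269 and 279 CPM (WT) in pyramidal-like neurons (-1.32, SE 0.079, adjusted p = 2.39e-11 by edgeR). Ndufb4, a distal arm subunit, was at 120 and 139 CPM (KO) and 132, 165 and 152 CPM (WT), against 214 and 270 CPM (KO) and 275, 234 and 265 CPM (WT) (-1.01, SE 0.088, adjusted p = 5.36e-09 by edgeR). No library of one class reached the other in these genes. Of the core subunits 0 were higher and 5 lower. Among 15 assembly factors 4 were higher and 7 lower, and Nubpl had the largest difference, at 64.6 ± 5.38 CPM in ependymal-like cells, against 5.85 ± 1.202 CPM in pyramidal-like neurons (3.29, adjusted p = 5.61e-13 by edgeR). Ndufaf3, an early assembly factor, was at 180 ± 17.96 against 56.4 ± 1.63 CPM (1.501, adjusted p = 1.56e-11 by edgeR), and its partner Ndufaf4 was at 22.6 ± 2.05 against 66.9 ± 6.15 CPM (-1.76, adjusted p = 1.43e-10 by edgeR).

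Endothelial-like cells had low levels of most subunits, with 4 of 38 members higher and 23 lower than pyramidal-like neurons, while 68.3% of all genes passed (30.5% higher and 37.8% lower). The median was -0.48, against -0.15 over all genes tested, and with DESeq2-type size factors both moved down, to -0.60 and -0.28. Ndufv3 was at 96.7 and 115 CPM (KO) and 101, 108 and 103 CPM (WT) in endothelial-like cells, against 183 and 229 CPM (KO) and 252, 194 and 258 CPM (WT) in pyramidal-like neurons (log2 difference -1.05, SE 0.138, adjusted p = 8.88e-08 by edgeR), without overlap. Ndufa5 was lower by as much (-1.001, SE 0.138, adjusted p = 1.87e-07 by edgeR), and with cells of 6000 to 15000 UMIs it did not pass at -0.38. Ndufv1 was an exception among the core subunits, at 156 and 188 CPM (KO) and 113, 118 and 144 CPM (WT), against 113 and 107 CPM (KO) and 97.2, 114 and 95.8 CPM (WT) (0.55, SE 0.143, adjusted p = 0.00127 by edgeR). The ranges touched within the WT libraries, though each library was higher than its own pyramidal-like neurons. That call was lost with at most 5% mitochondrial UMIs (0.47), and the call of Ndufs8 at 0.35 was lost under 8 of 14 alternatives. The count of 27 was 17 with cells thinned to 3000 UMIs and 14 with cells of 6000 to 15000 UMIs, beside a median depth of 6985 UMIs per endothelial-like cell.

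Ndufa4l2, known as a target of the hypoxia-inducible factor and as a transcript of pericytes, was a gene of mural-like cells. It was at 1069 and 1172 CPM in the KO and 790, 426 and 1196 CPM in the WT libraries of mural-like cells, against 0.81 and 0.26 CPM (KO) and 0.44, 0.61 and 0.58 CPM (WT) in pyramidal-like neurons, where 28 UMIs were counted in all (0.55 CPM, exact Poisson 95% interval 0.36 to 0.79, which covers counting error only). The fitted log2 difference was 10.73 (SE 0.25). Between classes the gene passed the filter on low counts only in comparisons with a class where it was higher than in neurons, so its differences to pyramidal-like neurons are descriptions and no p is given, and counts over 38 members include it. Of 194 mural-like cells 172 (88.66%, exact 95% interval 83.34 to 92.76) had a UMI of it at a median of 5084.5 UMIs per cell, and 27 of 2919 pyramidal-like neurons (0.925%) had one at 15451. In microglia-like cells it had 0 of 1888330 UMIs, where 3 UMIs would have come to between 4.30 and 19.8 CPM in a single library.

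A lower level of Ndufa4l2 was found in ependymal-like, fibroblast-like and endothelial-like cells. In ependymal-like cells it was at 98.8 and 47.8 CPM (KO) and 65.4, 45.1 and 68.4 CPM (WT), a log2 difference of 6.71 to pyramidal-like neurons (SE 0.21). The mural marker list summed to 148 to 231 CPM there, against 5966 to 18100 CPM in mural-like cells, with 8 of 10 markers detected, Kcnj8 and Abcc9 at 0 and Rgs5 at 6.47 CPM. In fibroblast-like cells, where it was at 42.8 and 38.9 CPM (KO) and 69.0, 54.3 and 78.2 CPM (WT), the log2 difference was 6.77 (SE 0.24). The list summed to 2094 to 2946 CPM in these cells, with 10 of 10 markers detected and Rgs5 at 2.90 CPM. Kcnj8, Abcc9 and Higd1b of the list were at 2.88, 0.90 and 4.5 CPM there. Vtn, also on the list, was among the 10 leading genes of fibroblast-like cells. Endothelial-like cells had it at 8.41 and 19.9 CPM (KO) and 6.30, 4.70 and 16.2 CPM (WT), from 30 UMIs in all (log2 difference 4.63), and the mural list summed to 67.3 to 282 CPM there with Rgs5 at 131 CPM and Tagln at 0. The part of mural RNA in these 3 levels was not tested.

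Ndufa4 was low in the same mural-like cells. It was at 178 and 234 CPM (KO) and 373, 820 and 261 CPM (WT), against 1139 and 1141 CPM (KO) and 1081, 1258 and 1152 CPM (WT) in pyramidal-like neurons (log2 difference -1.81, SE 0.197, adjusted p = 9.76e-09 by edgeR). Mural-like cells had the lowest mean of Ndufa4 of the 17 classes, at 373 ± 260 CPM, and interneuron-like cells the highest, at 1423 ± 32.3 CPM. WT replicate 2 stood apart, with the highest Ndufa4 and the lowest Ndufa4l2, and its mural marker list summed to 5966 CPM, against 14120 to 18100 CPM in the other 4 libraries. Without it the differences were -2.13 for Ndufa4 and 10.91 for Ndufa4l2. With high doublet scores removed the difference of Ndufa4 was -2.12, and a single cell held 18.86% of the Ndufa4 UMIs of mural-like cells.

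**Figure D4:**
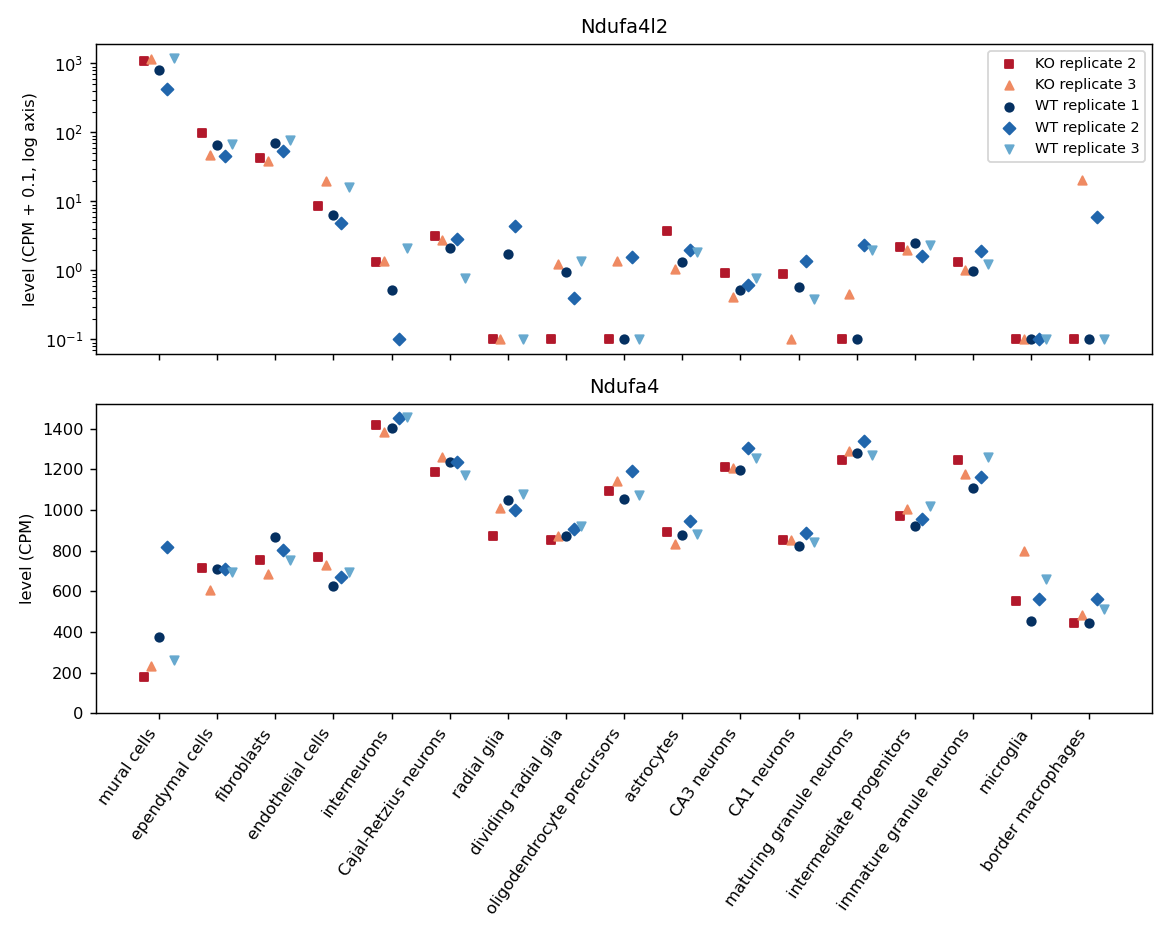
Level of Ndufa4l2 (upper panel, CPM plus 0.1 on a log axis, so that a point at 0.1 is 0 UMIs) and of Ndufa4 (lower panel, CPM, linear axis from 0) in 17 classes; each point is 1 library, KO in reds and WT in blues. Ndufa4l2 lies between 426 and 1196 CPM in mural-like cells and between 0 and 4.30 CPM in neurons, progenitors, radial glia-like, astrocyte-like, oligodendrocyte precursor-like and microglia-like cells, and Ndufa4 is lowest in mural-like cells apart from WT replicate 2 at 820 CPM.

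The 36 subunits differed less between mural-like cells and pyramidal-like neurons than these 2 genes. Of 38 members 6 were higher and 4 lower, while 48.5% of all genes passed, and the median was -0.04, against -0.13 over all genes tested. Of the core subunits 3 were higher and 0 lower. Ndufa8 was lower at -0.52 (SE 0.152, adjusted p = 0.00532 by edgeR). In fibroblast-like cells 15 of 38 members were higher and 9 lower, while 73.0% of all genes passed (35.9% higher and 37.1% lower), with a median of 0.10, against -0.03 over all genes tested. With library totals alone the split was 11 and 14, and with at most 5% mitochondrial UMIs 10 members passed in all. Ndufa13, a proximal arm subunit also known as GRIM-19, was at 703 and 687 CPM (KO) and 855, 625 and 698 CPM (WT) in fibroblast-like cells, against 326 and 376 CPM (KO) and 377, 370 and 374 CPM (WT) in pyramidal-like neurons, without overlap (1.09, SE 0.078, adjusted p = 6.06e-10 by edgeR). Ndufa8 at -0.52 and Ndufa4 at -0.45 were lower in 5 of 5 libraries, and of the mitochondrially encoded subunits 5 of 7 were higher and 0 lower.

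The immune classes held few cells. Microglia-like cells (192) had 5 of 37 members higher and 9 lower than pyramidal-like neurons, while 57.4% of all genes passed (25.7% higher and 31.7% lower), with a median of -0.13, against -0.16 over all genes tested. Ndufs8 was at 135 and 145 CPM (KO) and 129, 144 and 210 CPM (WT) in microglia-like cells, against 85.0 and 81.2 CPM (KO) and 94.1, 83.1 and 95.6 CPM (WT) in pyramidal-like neurons, without overlap (1.06, SE 0.169, adjusted p = 3.12e-05 by edgeR). Ndufb2 was at 121 and 151 CPM (KO) and 118, 112 and 178 CPM (WT), against 230 and 282 CPM (KO) and 306, 270 and 287 CPM (WT), also without overlap (-0.76, SE 0.171, adjusted p = 0.000960 by edgeR). Ndufa4 was at -0.67 (SE 0.159, adjusted p = 0.00138 by edgeR), and Ndufb7 at 0.73 (SE 0.176, adjusted p = 0.00164 by edgeR), higher in 4 of 5 libraries, did not pass with at most 5% mitochondrial UMIs. The count of 14 was 8 without WT replicate 1, 9 without WT replicate 2, 3 with at most 5% mitochondrial UMIs and 22 with library totals alone (4 higher and 18 lower, beside a median of -0.48 over all genes tested).

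Border macrophage-like cells (137) had 1 of 37 members higher and 17 lower, while 56.9% of all genes passed (24.8% higher and 32.1% lower), with a median of -0.34, against -0.24 over all genes tested. With DESeq2-type size factors 1 was higher and 22 lower, and the medians were -0.52 and -0.42. Ndufb2 was at 88.6 and 40.1 CPM (KO) and 104, 104 and 120 CPM (WT) in border macrophage-like cells, against 230 and 282 CPM (KO) and 306, 270 and 287 CPM (WT) in pyramidal-like neurons (-1.29, SE 0.190, adjusted p = 5.90e-11 by edgeR). Ndufb6 was at 53.2 and 80.3 CPM (KO) and 77.5, 92.2 and 79.9 CPM (WT), against 196 and 220 CPM (KO) and 190, 229 and 215 CPM (WT) (-1.26, SE 0.203, adjusted p = 2.81e-09 by edgeR). Neither gene overlapped between the classes. KO replicate 3 held 7 cells and 49839 UMIs in this class, where 3 UMIs come to 60.2 CPM, so that its levels rest on few UMIs. The single higher member was Ndufa2 at 0.56 (SE 0.159, adjusted p = 0.00119 by edgeR), whose call was lost under 6 of 14 alternatives, among them without WT replicate 1, 2 or 3 (0.22, 0.48 and 0.19).

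Between the genotypes, no complex I member passed the test in any class. The comparison covered the 15 classes in which no library fell below 20 cells, CA1-like and CA3-like neurons being counted both apart and within pyramidal-like neurons, and excluded microglia-like, mural-like, border macrophage-like and choroid plexus-like cells. Of 558 tests of a member in a class, 0 passed by edgeR, against 0.0% of all genes in pyramidal-like, 0.00941% in CA1-like, 0.00968% in maturing granule-like and 0.017% in Cajal-Retzius-like neurons and 0.0% in the other classes. The smallest adjusted p was 0.921, 11 tests (1.97%) had an unadjusted p under 0.05, against 3.54% of all genes in pyramidal-like neurons and 1.94% to 5.3% by class, and DESeq2 gave 0 passing and 6 with an unadjusted p under 0.05. The median log2 difference of the members, KO minus WT, ran from -0.09 in astrocyte-like to 0.19 in endothelial-like cells, and the median standard error of a member from 0.097 to 0.228 by class. In pyramidal-like neurons the median was -0.01 for the members and over all genes tested. With 2 against 3 libraries of pooled pups these errors cover the spread between libraries, and differences of nearly 3 standard errors did not pass.

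In pyramidal-like neurons the summed level of the 36 subunits was 8499 and 9068 CPM in the KO, against 9027, 8983 and 9006 CPM in the WT libraries. The KO libraries lay on both sides of the WT ones. Ndufa3, a small subunit of the proximal arm, had the smallest p there, at 77.2 and 108 CPM (KO), against 126, 98.8 and 123 CPM (WT) (-0.30, SE 0.144, adjusted p = 0.9999 by edgeR). It was also the first in CA1-like neurons, at 79.7 and 102 CPM (KO), against 133, 107 and 124 CPM (WT) (-0.41, SE 0.142, adjusted p = 0.959 by edgeR), where the groups did not overlap. The lower library of each genotype was the one numbered 2. In CA1-like neurons Ndufa5 was at 234 and 281 CPM (KO), against 326, 306 and 306 CPM (WT), and Ndufb2 at 208 and 258 CPM (KO), against 310, 294 and 264 CPM (WT), with log2 differences of -0.26 and -0.28 and the same adjusted p of 0.959 by edgeR.

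In astrocyte-like cells the KO libraries were lowest, with the sum at 9102 and 9025 CPM in the KO, against 9794, 9543 and 9355 CPM in the WT. Mural-like cells, too few for the test, were the other class without overlap, at 8435 and 8871 CPM in the KO, against 9400, 9140 and 9480 CPM in the WT. Of 37 members in astrocyte-like cells 11 had KO and WT libraries that did not overlap, all 11 lower in the KO, while 16.4% of all genes with a mean of at least 10 UMIs did not overlap. Ndufa1 was at 114 and 124 CPM (KO), against 165, 148 and 139 CPM (WT) (-0.37, SE 0.131, adjusted p = 0.9996 by edgeR). Ndufc1, of the proximal arm, was at 198 and 214 CPM (KO), against 275, 230 and 249.4 CPM (WT) (-0.31, SE 0.129). The same count was 11 of 37 in oligodendrocyte precursor-like cells (7 higher and 4 lower in the KO, 20% of all genes), 11 of 38 in ependymal-like cells (5 and 6, 18.1%) and 10 of 37 in endothelial-like cells (9 and 1, 20.1%). It was 8 of 37 in immature granule-like neurons (6 and 2, 17.7%), and 7 of 37 in intermediate progenitor-like cells (6 and 1, 15.9%), interneuron-like cells (5 and 2, 20.6%) and Cajal-Retzius-like neurons (7 and 0, 18.6%). It was 6 of 37 in CA1-like neurons (2 and 4, 19.8%) and radial glia-like cells (3 and 3, 19.8%), and 6 of 38 in fibroblast-like cells (1 and 5, 18.1%). It was 3 of 37 in pyramidal-like (1 and 2, 18.5%), CA3-like (0 and 3, 18.9%) and maturing granule-like neurons (1 and 2, 17.4%), and 2 of 37 in dividing radial glia-like cells (1 and 1, 19.5%). These shares of all genes count both directions together, so the splits into higher and lower have no share of all genes beside them. No conclusion on direction is drawn from the splits, and the differences between classes were not tested. Ndufa11 was at 495 and 551 CPM (KO), against 458, 426 and 439 CPM (WT) in Cajal-Retzius-like neurons (0.26, SE 0.094, adjusted p = 0.9997 by edgeR).

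**Figure D5:**
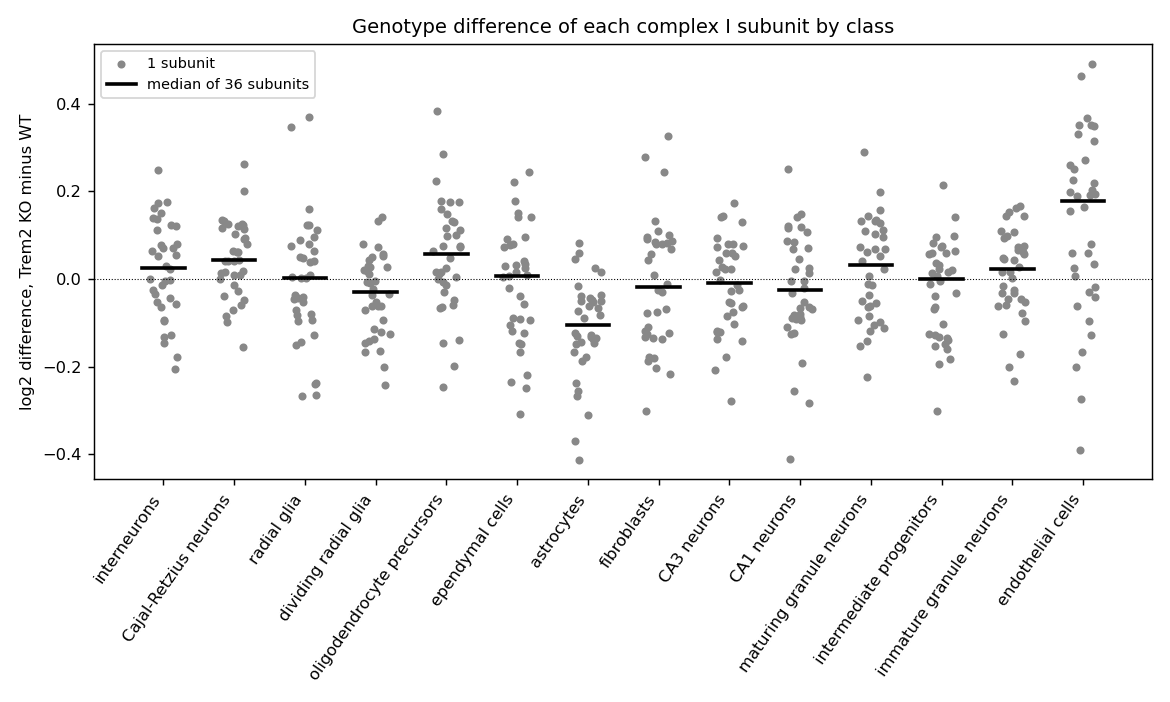
Log2 difference between Trem2 KO and WT (KO minus WT) of each of the 36 subunits in 14 classes, each grey point 1 subunit and each black bar the median of the 36; the horizontal spread within a class is arbitrary. No point passed the test, the medians lie close to 0, and the lowest is in astrocyte-like and the highest in endothelial-like cells.

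Some members leaned the same way in every class, without passing in any. Over the 14 classes that do not contain one another, Ndufb2 and Ndufc1 were lower in the KO in 14 of 14, and Ndufv1 and Ndufa9, a Q module subunit with a dehydrogenase-like fold, were higher in 14 of 14. Their medians over classes were -0.11, -0.14, 0.14 and 0.10. Ndufa2, Ndufa3, Ndufa6 and Ndufa13 were lower in 13 of 14 classes, and Ndufa11, Ndufs3 and Ndufs4 were among those higher in 13 of 14. The classes come from the same 5 libraries and are not replicates of each other. The share of all genes that lean the same way over the classes is not given here. These counts therefore do not set the members apart from other genes. Ndufa9 was at 127 and 134 CPM (KO), against 111, 118 and 112 CPM (WT) in interneuron-like cells (0.25, SE 0.107, adjusted p = 0.921 by edgeR). It was at 142 and 132 CPM (KO), against 118, 107 and 94.2 CPM (WT) in oligodendrocyte precursor-like cells (0.38, SE 0.171, adjusted p = 0.999 by edgeR). Ndufa4l2 in fibroblast-like cells was at 42.8 and 38.9 CPM (KO), against 69.0, 54.3 and 78.2 CPM (WT), the smallest unadjusted p of the 558 (-0.74, SE 0.248, adjusted p = 0.998 by edgeR).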

How the data were processed

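Single-cell 3′ gene expression was measured in 2 Trem2 KO and 3 WT libraries of postnatal day 1 hippocampus, each a pool of 2 pups. The deposited files hold raw UMI counts per gene and cell barcode; they were made with Cell Ranger 6.1 per the submitters' processing notes (6.1.1 per the file headers) on mm10. Annotation filters, the cell calling settings and the use of strand are not given in the sources used here.

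Barcodes below 500 detected genes or 1000 UMIs, or above 15% mitochondrial UMIs, were dropped. Classes were set by the number of detected markers (lists of 6 to 11 genes, minimum of 2 to 6), and no annotation of cell types by the authors was used. Some gates also had a maximum, of 1 astrocyte marker in radial glia-like cells and 4 radial glia markers in neurons. The maximum was 2 CA3 markers in CA1-like and 1 CA1 marker in CA3-like neurons. A cut at 3 UMIs of Prox1 was used as well. Whether these limits shaped the depth of the classes was not tested. Radial glia-like cells rest on their list, although 1 of its genes was among their 10 leading genes. Doublets were treated by leaving out the cells that met the gates of 2 classes, and as an alternative by removing the highest Scrublet scores (scanpy 1.11.5) at 0.8% per 1000 barcodes. The counts of a class were added up within each library, and CPM is that sum scaled to a class total of 1e6.

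edgeR 4.0.16 (R 4.3.3) quasi-likelihood tests with TMM scaling and its low-count filter were fitted across all genes, with library as a block between classes (at least 5 cells in every library) and with genotype alone between KO and WT (at least 20 cells). P-values were adjusted by Benjamini-Hochberg over all genes tested, with a threshold of 0.05. Libraries of 1 group are separate pools, and p-values between KO and WT measure the spread between them. Between classes, p-values measure how far the difference within a library varies over the libraries of both genotypes. Scripts were tested on simulated data. Exact 95% intervals cover counting error only.

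Alternatives were DESeq2 1.42.0, RLE size factors, library totals alone, no filter, 1 more marker per gate, at most 5% mitochondrial UMIs, high doublet scores removed, cells thinned to 3000 UMIs, each library left out, a replicate block by genotype and, added after seeing the data, cells of 6000 to 15000 UMIs. Members named with values were the 2 highest and 2 lowest past the threshold in each class comparison (mean of at least 10 UMIs), the 3 smallest p by genotype, the 7 core subunits, Ndufa4 and Ndufa4l2; by genotype only those with the smallest p overall are printed. Ndufab1 and the pathway genes given as examples were named after their values were seen. The members and lists were chosen with earlier results of these data known. Values of 1 member are not reported here by name, and the counts and sums include it.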

Additional observations from a re-analysis of the deposited data

Results flagged for a closer look

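In 5 of 70 sets of 5 libraries, 1 library lay far from the other 4 by Dixon's criterion, while chance gives about 1 in 20 such sets. These are log2 ratios of CPM within each library.

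The median of the 36 subunits between radial glia-like cells and pyramidal-like neurons was -0.055 in WT replicate 2, against 0.09 and 0.08 in the KO and 0.11 and 0.08 in the other WT libraries. Ndufb5 between ependymal-like cells and pyramidal-like neurons was 0.85 in WT replicate 2, against 1.13 and 1.14 in the KO and 1.13 and 1.10 in the other WT libraries. The median of the 36 subunits between mural-like cells and pyramidal-like neurons was -0.13 in KO replicate 3, and 0.02 in the other KO library and 0.05, 0.03 and 0.00 in the WT. Ndufb6 between border macrophage-like cells and pyramidal-like neurons was -1.86 in KO replicate 2, and -1.45 in the other KO library and -1.28, -1.30 and -1.42 in the WT. Ndufb2 in the same comparison was -2.78 in KO replicate 3, and -1.37 in the other KO library and -1.55, -1.37 and -1.25 in the WT. The border macrophage-like class held as few as 7 cells in a library.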

How the results depend on the processing

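Of 433 alternatives to 30 counts of members passing, 417 stayed within 1.5 times. Of 1435 alternatives to 100 named differences, 1406 kept their direction and side of the threshold, 29 lost the call and 0 reversed. These totals pool comparisons between classes with those by genotype. The 30 counts include those of 15 classes by genotype, which were 0 in every setting. All 16 counts that moved and all 29 lost calls were between classes, so the totals understate the dependence on processing there. With at most 5% mitochondrial UMIs the count was 4 for maturing against immature granule-like neurons, 11 for radial glia-like, 10 for fibroblast-like and 3 for microglia-like cells against pyramidal-like neurons, and 7 for CA1-like against CA3-like neurons. Thinning cells to 3000 UMIs gave 1, 17 and 4, and cells of 6000 to 15000 UMIs gave 6, 14 and 5, for maturing granule-like neurons, endothelial-like cells and CA1-like neurons in the same comparisons. Library totals alone gave 22 for microglia-like cells, and DESeq2 gave 6 for CA1-like neurons. Leaving out 1 library gave 8 to 16 for microglia-like cells (8 without WT replicate 1, 9 without WT replicate 2) and 7 to 14 for CA1-like neurons (7 without WT replicate 3). The causes were not tested, apart from fewer cells where cells are dropped.

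By genotype 0 members passed in each of 16 settings. The replicate numbers are not said to pair libraries, and only 2 are shared. In pyramidal-like neurons the deviations of same-numbered libraries correlated at r = 0.49 and 0.33. Those of KO replicate 3 and WT replicate 1 correlated at 0.30. In astrocyte-like cells these 3 values were 0.44, 0.38 and 0.13, and in interneuron-like cells 0.34, 0.23 and 0.21. The deviations of the 2 KO libraries mirror each other, so that the pairs are not independent. These values therefore cannot decide whether the numbers pair libraries. With the replicate block 0 members passed, 20 had an unadjusted p under 0.05 and the smallest adjusted p was 0.172 by edgeR, while 660 genes passed over all classes, against 4 without the block, 14 with DESeq2 and 286 with no filter. Mural-like cells were not run with at most 5% mitochondrial UMIs or in the depth window, with under 5 cells in a library. The small classes, shallow cells and 2 KO libraries limit what could be detected.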

Other observations

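Thrsp, a gene of lipid synthesis, lies 5136 bases from Ndufc2 on the other strand (mm10, chromosome 7, 97412938 to 97417730). Like Ndufc2, Thrsp was high in both radial glia-like classes, and its level in astrocyte-like cells is not given here. It was at 732 ± 149 CPM in radial glia-like, 429 ± 98.2 CPM in dividing radial glia-like and 89.3 ± 11.1 CPM in intermediate progenitor-like cells, and at 2.47 ± 0.70 CPM in pyramidal-like neurons (SD, n = 5). Alg8, 7818 bases away on the other side, was at 10.3 CPM in radial glia-like cells and 2.36 CPM in pyramidal-like neurons. Whether reads of one gene reach the count of another here was not tested.

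Outside the subunits, Ppargc1a was at 71.8 ± 6.55 CPM in astrocyte-like cells, against 14.8 ± 1.69 CPM in pyramidal-like neurons, and Nrf1, the regulator, was at 28.8 ± 3.54 CPM in intermediate progenitor-like cells, against 43.2 ± 5.04 CPM in dividing radial glia-like cells.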
